A study of Mus musculus with 2 samples.

Results

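The miR-130/miR-301 family (miR-130a-3p, miR-130b-3p, miR-301a-3p and miR-301b-3p), miR-204-5p and miR-328-3p are microRNAs (miRNAs) that have been tied to pulmonary hypertension, and their levels were compared between NOX1-deficient and wild-type mouse pulmonary arterial smooth muscle cells. They were chosen by their miRBase mature-sequence accessions, which gave 6 of the 739 features of the array table. All 6 had an intensity on both arrays, as did 472 features in all. NOX1 is a catalytic subunit of the NADPH oxidases, enzymes that make superoxide. There were 2 arrays, 1 of cells from 3 male NOX1-deficient mice (called KO in the sample title) and 1 of cells from 3 male wild-type mice, both on the C57BL/6 background. The cells of both genotypes were cultured cells at passage 3, seeded at 150000 per well and grown with 10% fetal bovine serum for 24 hours, in DMEM/F-12 medium, with no other treatment named. The sources used here do not give the way the Nox1 gene was inactivated, the ages of the mice or whether the cells or RNA of the 3 mice were combined before labelling.

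A mature miRNA pairs with messenger RNAs mainly through its seed, bases 2 to 8 from its 5′ end, and lowers their translation and stability, so miRNAs with the same seed share many of their targets. The miR-130/miR-301 family is known to be raised in the lung vessels of patients and rodents with pulmonary hypertension and to act on the nuclear receptor PPARγ, which restrains growth of the vessel wall cells. miR-204 is known to be lowered in smooth muscle cells of diseased human pulmonary arteries, where its targets include the phosphatase SHP2, and miR-328 is known from hypoxic rats to be lowered and to target the L-type calcium channel and the receptor for insulin-like growth factor.

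The mature sequences are shown because the seed sets the family, with bases 2 to 8 in capitals; they are the RefSeq entries on GRCm38.p6, which held 4 of the 6 miRNAs.
miR-130a-3p: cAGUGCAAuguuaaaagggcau
miR-130b-3p: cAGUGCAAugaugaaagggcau
miR-301a-3p: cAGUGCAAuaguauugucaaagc
miR-204-5p: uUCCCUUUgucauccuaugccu
miR-211-5p: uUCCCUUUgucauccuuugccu
The first 3 carry the seed AGUGCAA and share their first 9 bases. miR-130b-3p differs from miR-130a-3p at 2 of 22 positions, A11U and G13A (the base of miR-130b-3p, the position from its 5′ end, the base of miR-130a-3p). miR-301a-3p differs from miR-130a-3p at 10 of the 22 positions compared without gaps, all from position 10 on. miR-204-5p has the unrelated seed UCCCUUU and is shown beside miR-211-5p, a close relative that is not among the 6, from which it differs at 1 of 22 positions (A17U, the base of miR-204-5p first). Among 1679 mature mouse miRNA names in the same table, 7 carry AGUGCAA at bases 2 to 8 (0.417%) and 3 carry UCCCUUU (0.179%). Besides the 3 shown, AGUGCAA is carried by miR-130c, miR-721, miR-6341 and miR-6389, and UCCCUUU is carried by miR-204-5p, miR-211-5p and miR-7670-3p. miR-301b-3p had no mature entry there, so it is not among the 7. How far each array probe separates such close sequences was not tested.

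The table places miR-130a-3p at chr2:84741116-84741137 on the minus strand, miR-130b-3p at chr16:17124071-17124092 on the minus strand, miR-301a-3p at chr11:87113054-87113076 on the plus strand and miR-204-5p at chr19:22750610-22750631 on the plus strand. Mir204 lies within the span of Trpm3, a cation channel gene, and the hairpin of miR-301a, Mir301, lies within that of Ska2, a gene of the kinetochore. No gene of that annotation spans Mir130a. The hairpins Mir130b and Mir301b are neighbours, with 257 bases between them on chromosome 16, and both lie within the span of 2610318N02Rik. For miR-301b the hairpin is shown, from chr16:17124400-17124496 on the minus strand, with the letters AGUGCAA in capitals at its bases 56 to 62.
Mir301b hairpin: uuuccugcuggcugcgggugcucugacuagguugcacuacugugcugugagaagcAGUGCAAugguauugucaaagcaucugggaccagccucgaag
The 7 letters occur once in this hairpin, and 12 of the 1005 mouse hairpins in the table hold them (1.19%).

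All 4 miR-130/miR-301 miRNAs read higher in NOX1-deficient than in wild-type cells, by 1.17-fold to 1.35-fold, and both miR-204-5p and miR-328-3p read lower, at 0.76 and 0.73 of the wild-type intensity. Of all 472 features, 50.2% read higher and 49.6% lower, and in the brightest quartile (118 features), which holds 3 of the 4 miR-130/miR-301 probes, 56.8% read higher. None of the 6 reached a 2-fold difference, which 0.212% of all features did in the higher and 1.69% in the lower direction. There was 1 array per genotype, so no difference has a replicate check, no test was made and no miRNA can be called changed or unchanged. Intensities are the deposited values, linear and in arbitrary units; they compare the genotypes for 1 probe at a time, and brightness is used below only to group probes by how widely their differences scatter, not as a measure of abundance.

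Over the whole table, 525 features had a value on the NOX1-deficient array and 546 on the wild-type array, with lowest listed intensities of 0.93 units in NOX1-deficient and 0.96 units in wild-type cells. For the 472 features with values on both, the difference in log2 intensity, NOX1-deficient minus wild-type with no pseudocount, had a median of 0.0038 and an SD across features of 0.37. That spread depended on brightness, with SDs of 0.45, 0.47, 0.29 and 0.18 from the dimmest to the brightest quartile of 118 features each. NOX1 messenger RNA was not measured on this array. The miRNAs that mark smooth muscle, miR-143 and miR-145, and those that mark other cell types could not be checked, because accessions other than the 6 were not paired with names in the sources used here.

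miR-301a-3p, the family member in Ska2, differed the most among the 4. It read 129 units in NOX1-deficient cells and 95.9 units in wild-type cells (MIMAT0000379), a ratio of 1.35 and a log2 difference of 0.43. In the brightest quartile, 3 of 118 features (2.54%), itself included, lay at least this far from 0 in either direction. Its difference was 2.41 times the SD of that quartile, a spread across features and not a measure of error.

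miR-130a-3p, the family member with no spanning gene, showed a smaller difference than miR-301a-3p. It read 254.5 units in NOX1-deficient cells and 217.9 units in wild-type cells (MIMAT0000141), a gain of 36.6 units, a ratio of 1.17 and a log2 difference of 0.22. A difference of at least this size was found in 25 of the 118 features of the brightest quartile (21.2%), so differences of this size were common there.

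The miRNAs of the neighbouring hairpins Mir130b and Mir301b both read higher in NOX1-deficient cells. miR-301b-3p read 32.8 units in NOX1-deficient cells and 27.7 units in wild-type cells (MIMAT0004186), a ratio of 1.18 and a log2 difference of 0.24. miR-130b-3p read 6.86 units in NOX1-deficient cells and 5.75 units in wild-type cells (MIMAT0000387), a ratio of 1.19 and a log2 difference of 0.25. For miR-301b-3p, 20 of the 118 features of the brightest quartile differed by at least as much. For miR-130b-3p, in the third quartile counted from the dimmest, 44 of 118 did. In the deposited values the log2 difference of miR-301b-3p lay about as close to that of miR-130a-3p, which is on another chromosome, as to that of miR-130b-3p. Whether miRNAs of neighbouring hairpins change together was not tested. Under quantile normalization the differences were 0.31 for miR-130b-3p, 0.20 for miR-301b-3p and 0.0425 for miR-130a-3p. In the same order they were 0.35, 0.34 and 0.32 under median centring and 0.29, 0.23 and 0.20 under the loess curve. With log2(intensity + 50) they were 0.0284, 0.091 and 0.18. The miR-130b-3p difference amounts to 1.11 units, at intensities 7.38 times the lowest listed value on the NOX1-deficient array and 5.99 times that on the wild-type array.

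**Figure D1:**
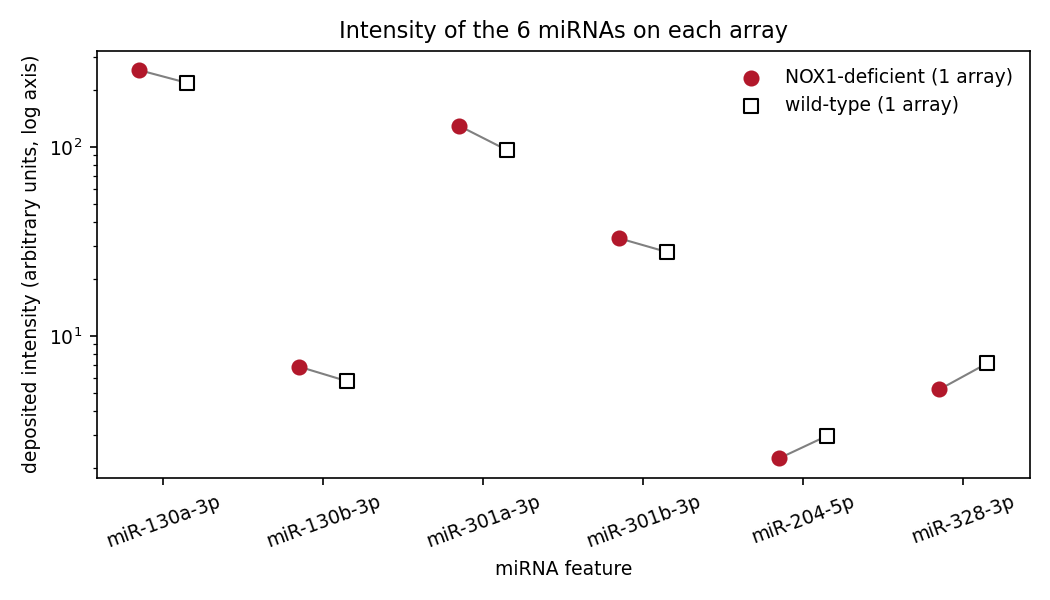
Deposited intensity (arbitrary units, log axis) of each of the 6 miRNAs, with the NOX1-deficient array as a filled circle on the left and the wild-type array as an open square on the right; each point is 1 array and there are no error bars. The 4 miR-130/miR-301 pairs slope down toward wild-type, while miR-204-5p (2.25 units NOX1-deficient, 2.96 units wild-type) and miR-328-3p (5.20 units NOX1-deficient, 7.16 units wild-type) slope up.

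miR-328-3p, which targets the L-type calcium channel, had the lowest ratio of the 6. It read 5.20 units in NOX1-deficient cells and 7.16 units in wild-type cells (MIMAT0000565), a ratio of 0.73 and a log2 difference of -0.46. Of the 118 features in its quartile, the third from the dimmest, 14 (11.9%) lay at least as far from 0. The NOX1-deficient minus wild-type difference was -1.96 units. Its intensities were 5.59 times the lowest listed value on the NOX1-deficient array and 7.46 times that on the wild-type array.

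miR-204-5p, the miRNA that lies within Trpm3, was read close to the lower end of the listed intensities. It read 2.25 units in NOX1-deficient cells and 2.96 units in wild-type cells (MIMAT0000237), a ratio of 0.76 and a log2 difference of -0.40. These intensities were 2.42 times the lowest listed value on the NOX1-deficient array and 3.08 times that on the wild-type array. In the second quartile from the dimmest, 43 of 118 features (36.4%) differed by at least as much, and the difference was smaller than the SD of that quartile. The gap was 0.71 units, and its error is unknown.

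The 6 differences were set beside those of all 472 features, since the share of features past a given fold is the background for these counts. Of the 6 miRNAs, 0 were at least 2-fold higher in NOX1-deficient cells, against 0.212% of all features, and 0 were at least 2-fold lower, against 1.69%. At 1.5-fold the counts were again 0 higher, against 4.03% of features, and 0 lower, against 7.2%. At 1.2-fold in the deposited values, 1 was higher (miR-301a-3p), against 19.1% of features, and 2 were lower (miR-204-5p and miR-328-3p), against 23.1%, with miR-130b-3p at 1.19-fold just short of that fold. This count depended on the scaling: 4 were higher under median centring, against 27.8% of features, and 2 (miR-130b-3p and miR-301a-3p) under quantile normalization, against 21.8%, and under the loess curve, against 20.3%. The count of 2 lower was the same under median centring, against 15.9% of features, quantile normalization, against 20.3%, and the loess curve, against 21.6%. It was 0 with an offset of 50, against 0.212%. In direction alone, 4 of the 6 were higher, against 50.2% of all features, and 2 were lower, against 49.6%. The brightest quartile, which holds miR-130a-3p, miR-301a-3p and miR-301b-3p, had 56.8% of its features higher and 43.2% lower. The third quartile, which holds miR-130b-3p and miR-328-3p, had 46.6% higher and 53.4% lower. In the second quartile, that of miR-204-5p, 43.2% were higher and 55.9% lower.

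The 4 miR-130/miR-301 differences had a median of 0.25 on the log2 scale and ran from 0.22 to 0.43, and their SD across the 4 probes was 0.0946. The median over all 6 was 0.23, against 0.0038 over all 472 features. Because 4 of the 6 were higher and 2 lower, this median falls among the family values. The mean over the 6 was 0.0485 with an SD across probes of 0.38, against -0.0304 and 0.37 over all 472 features. The 4 probes are not replicates of the genotype: they were read on the same 2 arrays, 2 of them come from neighbouring hairpins, and the 3 with a mature sequence here share their first 9 bases.

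**Figure D2:**
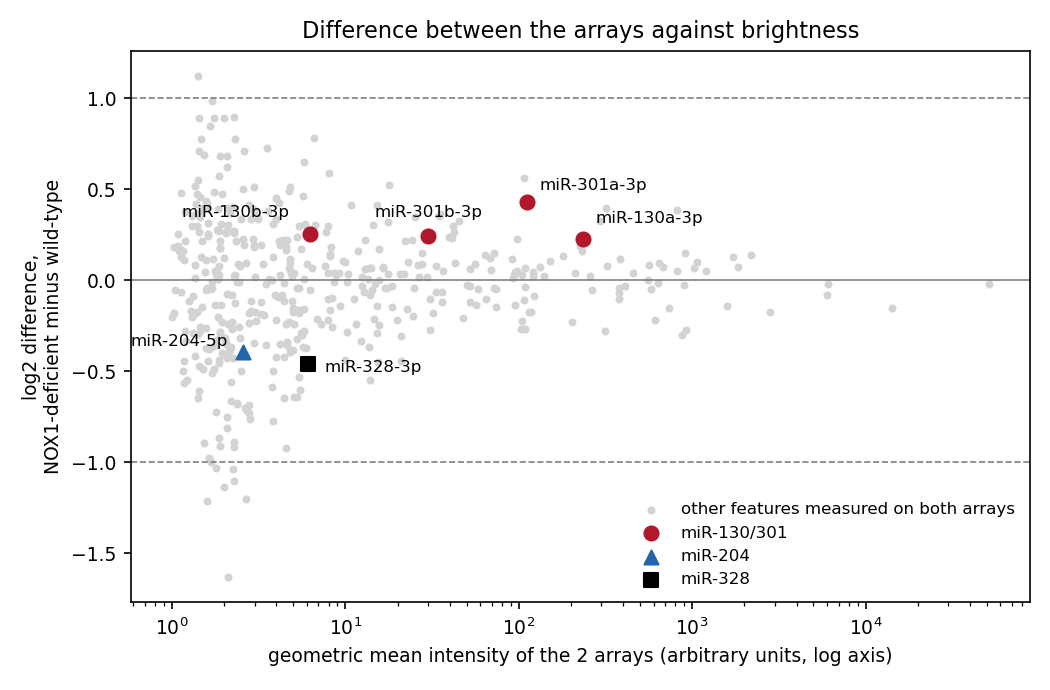
Log2 difference, NOX1-deficient minus wild-type, of the 472 features with values on both arrays against their geometric mean intensity (arbitrary units, log axis), with dashed lines at 2-fold; grey points are the other features. The 4 miR-130/miR-301 miRNAs lie above 0, at 0.22 to 0.43, and miR-204-5p and miR-328-3p lie below it. miR-130b-3p, miR-204-5p and miR-328-3p lie among dimmer features that scatter more widely.

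The directions were then examined under other scalings of the arrays, since the sources used here do not name the normalization behind the deposited values. The array medians differed by -0.10 on the log2 scale, and removing this raised every value by 0.10, which put miR-130a-3p at 0.32, miR-301a-3p at 0.52, miR-204-5p at -0.30 and miR-328-3p at -0.36. It also moved the median over all features to 0.10 and the share of all features that read higher to 61.2%, so relative to the other features nothing shifted. Quantile normalization left miR-301a-3p at 0.39 and miR-328-3p at -0.45 but brought miR-130a-3p to 0.0425. That method sets each value by its rank within its array, and the rank of the miR-130a-3p probe was 39 on the NOX1-deficient and 41 on the wild-type array. Removing a loess trend with brightness gave 0.20 to 0.40 for the family, -0.34 for miR-204-5p and -0.43 for miR-328-3p. All 24 recomputed differences of the 6 miRNAs kept their sign, including 6 from log2(intensity + 50), which cannot turn one. Median centring raised every value, so it could not turn a difference that was already above 0.

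**Figure D3:**
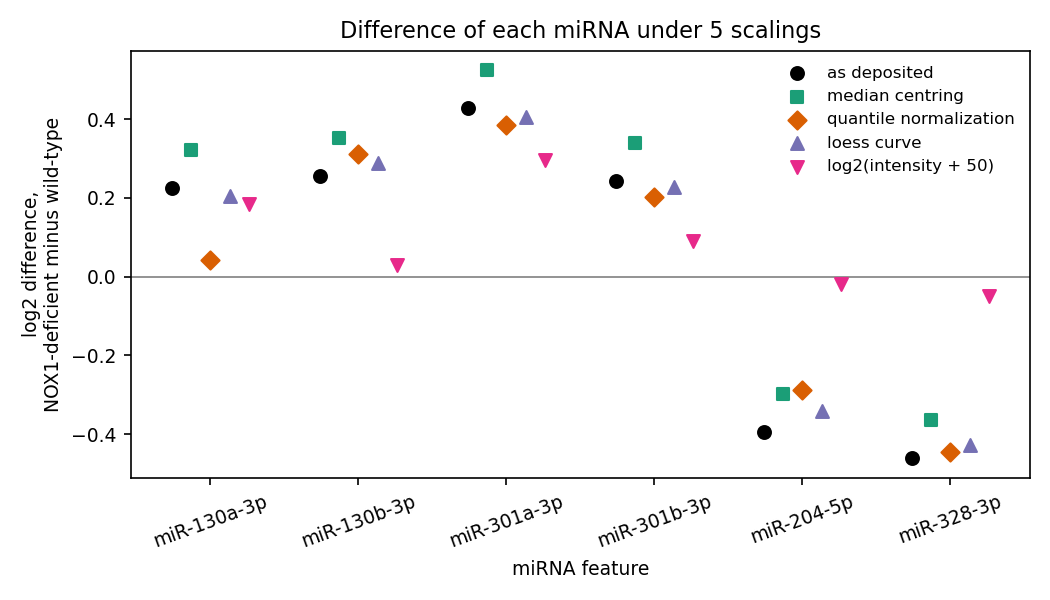
Log2 difference, NOX1-deficient minus wild-type, of each of the 6 miRNAs under 5 scalings, 1 point per scaling and no error bars. Every point of the 4 miR-130/miR-301 miRNAs lies above 0 and every point of miR-204-5p and miR-328-3p below it; the offset of 50 draws the dim probes toward 0, and quantile normalization puts miR-130a-3p at 0.0425.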

How the data were processed

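Total RNA prepared with the miRNeasy mini kit was labelled with Hy5 using the miRCURY LNA kit, per the labels' protocols, with 1 array per genotype. The authors deposited 1 intensity per feature and array; that these are linear was read from the values. The sources used here do not name the background correction, the normalization between arrays or the meaning of a null. The number of arrays limits the precision. Log2 differences (NOX1-deficient minus wild-type) were computed from the intensities as they stand, over the 472 features with a value on both arrays; folds of 2, 1.5 and 1.2 were counted. Quartiles were cut on mean log2 intensity. With 1 array per genotype no test or p-value was possible. As alternatives, arrays were centred on their medians, quantile-normalized, corrected by a loess curve (span 0.4) or given an offset of 50, and the brighter features were taken alone. The 1.2-fold threshold, and its use under each scaling, was chosen after seeing the data.

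The 6 miRNAs and all lists were chosen with earlier results of these data known. The text was to name the 6, features sharing a seed, other arms and cluster members, the features nearest in intensity, other pulmonary hypertension miRNAs and cell type markers. Apart from the 6, no accession was paired with a name, so none of these was evaluated. The arithmetic of the differences was checked on simulated data, which is no test of the genotypes. Sequences and neighbours came from RefSeq (GRCm38.p6). The software was Python 3.11.15 with statsmodels 0.14.6, numpy 2.4.6, pandas 2.3.3 and matplotlib 3.10.9.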

Additional observations from a re-analysis of the deposited data

How the results depend on the processing

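All 24 recomputed differences of the 6 miRNAs kept their sign, but some could not have turned. The offset of 50 cannot turn a sign, and median centring raised every value, so it could not turn those above 0. Of the 24, 2 moved by more than the SD of their brightness quartile. miR-130a-3p came to 0.0425 under quantile normalization, and miR-328-3p came to -0.0503 with log2(intensity + 50), an offset well above its intensities. None of the 6 miRNAs was 2-fold apart under any scaling or at 1.5-fold. The counts at 1.2-fold follow, each with the share of all 472 features in parentheses. In the deposited values, 1 was higher (19.1%) and 2 were lower (23.1%). Under median centring, 4 were higher (27.8%) and 2 lower (15.9%). Under quantile normalization, 2 were higher (21.8%) and 2 lower (20.3%), and under the loess curve, 2 were higher (20.3%) and 2 lower (21.6%). With log2(intensity + 50), 1 was higher (1.06%) and 0 were lower (0.212%). In NOX1-deficient cells, 1 of all 472 features was higher by 2-fold or more and 8 were lower. Those counts became 2 and 5 under median centring and under the loess curve. Quantile normalization gave 2 higher and 6 lower. Both counts were 0 with log2(intensity + 50) and among the brighter features alone, 19 and 34 at 1.5-fold, and 90 and 109 at 1.2-fold. The median over the 6 stayed at 0.23 with nulls replaced, since none of the 6 had a null, and was 0.25 for the miR-130/miR-301 family alone. No paired analysis was possible because there was a single array for either genotype, so there was also no replicate to leave out. Signal over background was not used here, and its part in the dim values of miR-204-5p, miR-328-3p and miR-130b-3p is unknown.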
